A study of Mus musculus with 11 samples.

Results

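The 32 genes described here are genes of skeletal muscle, chosen by symbol as myogenic regulators, sarcomere and other muscle genes, subunits of the muscle acetylcholine receptor and the kinase Musk. All 32 were matched by Ensembl identifier among the 56691 genes of the table, of which 52073 had a symbol. Their counts came from EpCAM-positive cells of NOD mouse thymus, sorted after depletion of CD45-positive cells and sequenced from low-input RNA. All mice were NOD, a strain prone to autoimmune diabetes, aged 4 to 8 weeks, and differed in the Aire allele: 3 libraries were WT/WT, 5 were WT/R249C and 3 were R249C/R249C. R249C changes an amino acid within the SAND domain of the Aire protein, and the study asked how it affects gene expression in thymic epithelium. The titles call the libraries biological replicates, but how many mice each library pools was not given. The p-values therefore measure the spread between libraries, which may be partly technical. The titles and the genotype field disagree for WT/R249C replicates 4 and 5 (R249C/R249C in the field); the titles were followed here, and results are also given without these libraries.

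Thymic epithelium shows developing T cells the proteins of other tissues, so that T cells reactive to them can be removed. Part of this display is made by mimetic cells, epithelial cells that take up the gene programme of another cell type under its lineage regulators, and the muscle programme is one of them. It matters for myasthenia gravis, in which autoantibodies against the muscle acetylcholine receptor or MuSK weaken the neuromuscular junction. Autoantibodies against titin or the ryanodine receptor also occur in this disease, and the thymus is often abnormal. The acetylcholine receptor is built of alpha, beta and delta subunits with gamma in fetal muscle or epsilon in adult muscle. MuSK organises these receptors under the nerve ending.

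The E-box CANNTG, the letters that MyoD family proteins such as myogenin bind, was searched in the windows from 250 bases before to 50 after the start of each gene (RefSeq, GRCm38.p6), because myogenin was the muscle regulator with most transcript. A window was found for 25 of the 32 genes; Myod1, Myf6, Chrnd, Tnnt3, Tnni2, Neb and Mymk had no entry. CANNTG reads the same on both strands, and CAGCTG is one of its forms. CANNTG was present in 23 of the 25 windows against 72.3% of all 32851 windows, and CAGCTG in 12 of 25 (48.0%) against 16.3%. These matches describe letters and do not show a bound site. The 250 bases before the start are printed for the alpha, gamma and epsilon receptor subunits, for myogenin and for skeletal actin, the genes on which the values below turn, with CANNTG in capitals. They are Chrna1 at chr2:73580339-73580588 on the minus strand, Chrng at chr1:87205561-87205810 on the plus strand, Chrne at chr11:70619195-70619444 on the minus strand, Myog at chr1:134289754-134290003 on the plus strand and Acta1 at chr8:123894776-123895025 on the minus strand.
Chrna1: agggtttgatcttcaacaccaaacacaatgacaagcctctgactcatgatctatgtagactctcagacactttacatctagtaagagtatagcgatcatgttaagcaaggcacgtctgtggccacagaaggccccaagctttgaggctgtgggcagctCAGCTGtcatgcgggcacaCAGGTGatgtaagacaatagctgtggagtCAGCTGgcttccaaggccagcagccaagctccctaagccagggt
Chrng: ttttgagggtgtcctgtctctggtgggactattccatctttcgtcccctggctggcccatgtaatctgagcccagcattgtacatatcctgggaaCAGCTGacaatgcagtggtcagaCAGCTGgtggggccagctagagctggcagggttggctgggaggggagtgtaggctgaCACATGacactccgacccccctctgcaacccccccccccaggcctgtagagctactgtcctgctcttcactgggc
Chrne: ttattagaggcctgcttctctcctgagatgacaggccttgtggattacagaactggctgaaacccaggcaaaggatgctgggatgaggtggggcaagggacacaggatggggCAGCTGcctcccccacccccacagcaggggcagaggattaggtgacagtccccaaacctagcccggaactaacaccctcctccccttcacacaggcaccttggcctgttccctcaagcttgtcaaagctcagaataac
Myog: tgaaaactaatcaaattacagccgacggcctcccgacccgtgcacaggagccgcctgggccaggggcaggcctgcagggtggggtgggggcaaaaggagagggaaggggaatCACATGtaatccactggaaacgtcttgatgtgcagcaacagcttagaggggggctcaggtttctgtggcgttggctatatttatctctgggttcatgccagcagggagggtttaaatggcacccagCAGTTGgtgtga
Acta1: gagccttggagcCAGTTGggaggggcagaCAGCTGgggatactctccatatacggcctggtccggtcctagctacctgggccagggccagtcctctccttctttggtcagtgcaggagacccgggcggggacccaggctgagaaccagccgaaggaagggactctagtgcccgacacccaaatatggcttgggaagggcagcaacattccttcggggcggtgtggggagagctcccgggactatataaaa
The genes of the alpha subunit and the fetal gamma subunit each held 3 E-boxes before the start, of which 2 were CAGCTG. The Chrna1 boxes began 92, 73 and 44 bases before the start, and the Chrng boxes 155, 132 and 75 bases before it. The epsilon subunit held 1, a CAGCTG beginning 138 bases before the start. Myog held 2, neither of them CAGCTG, and Acta1 held 2, of which 1 was CAGCTG.

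Libraries held 60560348 to 182319976 counts, so 3 counts corresponded to 0.0165 to 0.0495 CPM (each count divided by its library's total, on a common scale), a floor that covers counting error only. Aire mRNA ranged from 174 to 858 CPM over the libraries. Markers of thymic epithelium were present in every library, among them Epcam at 355 to 521 CPM, Krt5 at 590 to 1573 CPM and Foxn1 at 58.1 to 189 CPM, named after their values were seen. Cd74, which leukocytes also make, averaged 23283 CPM and dominated the sum of the 15 epithelial markers. Of these 15, 13 were fitted higher than in WT/WT in each mutant genotype, none with an adjusted p under 0.05 by edgeR. At an unadjusted p under 0.05 edgeR gave 3 of them higher in R249C/R249C, against 1.7% of all genes. It gave 4 higher in WT/R249C, against 1.91% of all genes. Mature medullary markers, Aire among them, summed to 728 to 2074 CPM. The 16 leukocyte markers, which the sort should remove, summed to 1722 to 3409 CPM in WT/WT libraries and 272 to 840 CPM in the 8 libraries carrying R249C, and their part in the differences below was not tested. Immunoglobulin genes weighed heavily in this sum: in WT/WT replicate 3 Igkc stood at 1863 CPM and Jchain at 1086 CPM. Of the 16, 12 were fitted lower than in WT/WT in each mutant genotype, none with an adjusted p under 0.05 by edgeR. At an unadjusted p under 0.05 edgeR gave 5 of them lower in R249C/R249C, against 1.51% of all genes. It gave 4 lower in WT/R249C, against 1.57% of all genes. Cd3e was highest in WT/R249C replicate 3, at 25.3 CPM. Batch A held 1 WT/WT, 3 WT/R249C and all 3 R249C/R249C libraries; batch B held 2 WT/WT and the 2 WT/R249C libraries of disputed genotype. Bulk RNA does not identify the cells that held the muscle transcripts. Fewer such cells cannot be told apart from less muscle RNA per cell.

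The muscle programme was present in every library and took up a small share of the counts. The 32 genes summed to 249.1, 353 and 558 CPM in WT/WT, to 295, 123, 368, 230 and 235 CPM in WT/R249C and to 298, 225 and 265 CPM in R249C/R249C, in replicate order. The means were 387 ± 157 (SD, n = 3), 250 ± 90.5 (n = 5) and 263 ± 36.2 (n = 3). The highest sums were those of the 2 WT/WT libraries of batch B and a WT/R249C library; within batch A the WT/WT library, at 249.1 CPM, lay inside the range of the 6 mutant libraries, 123 to 368 CPM. Desmin, titin and myogenin supplied on average 18.1%, 17.2% and 14.9% of the sum. All 32 genes had counts in at least 1 library and 13 in all 11, but only 6 (Myog, Ckm, Acta1, Ttn, Mylpf and Des) reached 1 CPM in every library. The number at 1 CPM or more was 21, 22 and 26 in the WT/WT libraries, 24, 20, 18, 24 and 18 in those of WT/R249C, and 28, 20 and 24 in those of R249C/R249C. Of the 32, 8 averaged over 10 CPM, 19 between 1 and 10 CPM and 5 (Myod1, Myf6, Chrnd, Casq1 and Cav3) under 1 CPM.

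**Figure D1:**
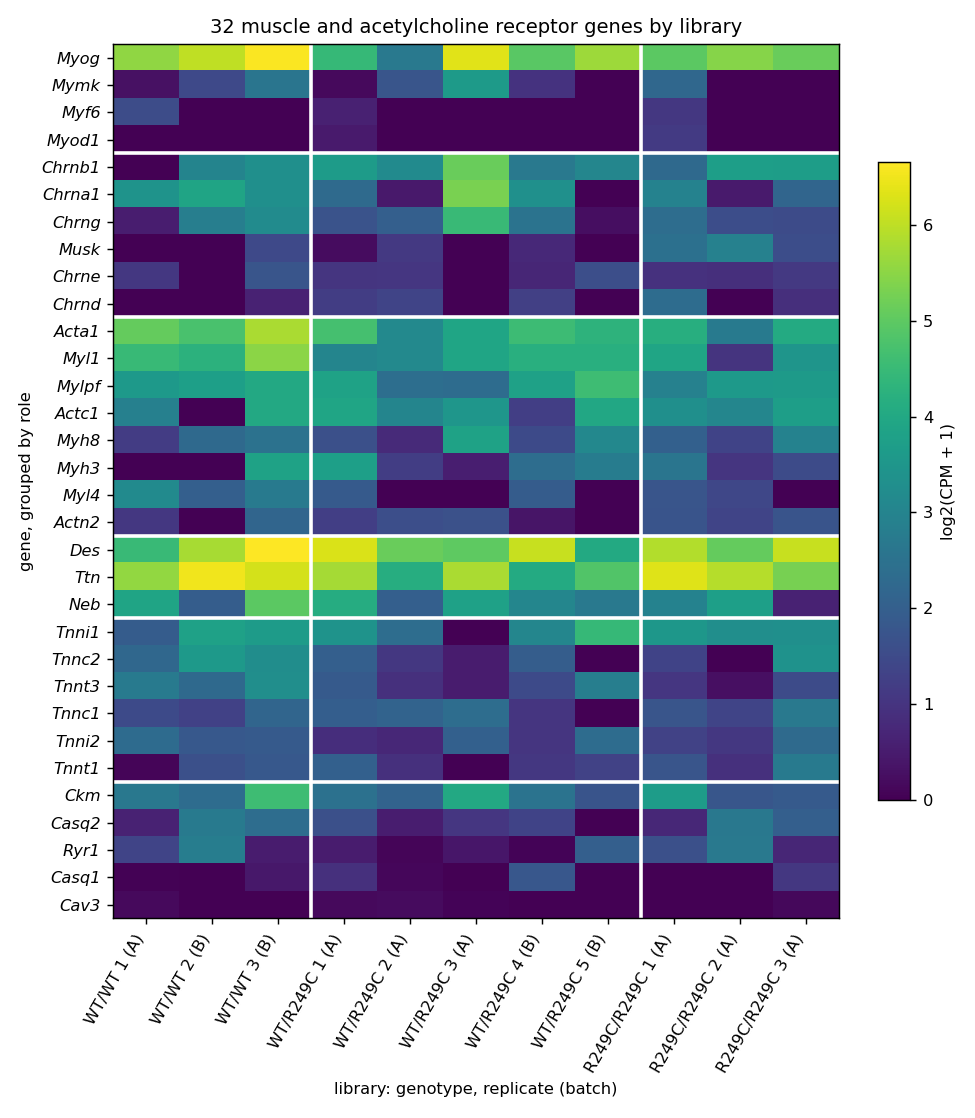
Level of each of the 32 genes (rows, grouped by role and ordered by mean within a role) in each of the 11 libraries (columns, with batch in parentheses), as log2(CPM + 1). Myog, Des and Ttn are bright in nearly every library, while genes such as Chrnd, Musk, Myh3 and Myl4 alternate between dark and bright libraries of one genotype.

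Among the regulators, myogenin, the transcription factor that drives terminal muscle differentiation, dominated. Myog stood at 46.0, 64.2 and 96.5 CPM in WT/WT, at 21.1, 5.45, 80.3, 29.8 and 50.7 CPM in WT/R249C, and at 30.2, 42.4 and 34.3 CPM in R249C/R249C. The 3 R249C/R249C libraries lay below all WT/WT libraries, while WT/R249C spanned from far below to above most of them. Per kilobase of exon Myog had the highest mean level of the 32 genes, 30.5 CPM per kb, 15.4 times that of Chrna1 on the same scale. Myod1, the regulator that commits cells to the muscle lineage, was at 0 in 9 libraries and had 0.387 CPM in WT/R249C replicate 1 and 1.20 CPM in R249C/R249C replicate 1. Those libraries were also 2 of the 3 that held Myf6, a late myogenic factor, at 0.513 and 1.09 CPM; the other was WT/WT replicate 1 at 1.94 CPM. A myogenin-high, Myod1-low pattern was thus seen in every genotype. Mymk, the membrane protein myomaker that lets myoblasts fuse, ranged from 0 to 11.4 CPM with a median of 0.9750 CPM, was at 0 in 3 libraries and was highest in WT/R249C replicate 3.

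The acetylcholine receptor was transcribed mainly as its alpha, beta and gamma subunits. Chrna1, which encodes the alpha subunit that binds acetylcholine and carries the main immunogenic region in myasthenia, stood at 9.62, 13.7 and 9.02 CPM in WT/WT. It stood at 3.91, 0.371, 38.9, 9.04 and 0 CPM in WT/R249C and at 6.75, 0.387 and 3.50 CPM in R249C/R249C. The WT/WT libraries were close together, all R249C/R249C libraries lay below them, and the WT/R249C libraries reached from 0 to the highest value of the series. The mean was 10.8 ± 2.54 CPM (SD, n = 3) in WT/WT, 10.4 ± 16.3 (n = 5) in WT/R249C and 3.55 ± 3.18 (n = 3) in R249C/R249C.

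Chrng, the fetal gamma subunit, had counts in every library, at 0.445, 6.16 and 8.21 CPM in WT/WT, 2.24, 3.05, 21.9, 4.83 and 0.180 CPM in WT/R249C, and 4.19, 1.95 and 1.85 CPM in R249C/R249C. Chrne, the adult epsilon subunit, was at 0 in 2 libraries and no higher than 2.39 CPM in the others, with group means of 1.16 ± 1.20, 0.953 ± 0.734 and 0.986 ± 0.158 CPM in WT/WT, WT/R249C and R249C/R249C. Per kilobase the mean level of Chrng was 1.20 CPM per kb and that of Chrne 0.603 CPM per kb. The Chrng mean was raised by WT/R249C replicate 3, at 21.9 CPM with Chrne at 0. The order was not the same in every library: Chrne exceeded Chrng in WT/WT replicate 1 (1.10 against 0.445 CPM) and WT/R249C replicate 5 (2.01 against 0.180 CPM). The genotypes overlapped for both subunits.

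Chrnb1, the beta subunit, stood at 0, 7.04 and 8.88 CPM in WT/WT, 11.6, 8.03, 34.2, 5.40 and 7.37 CPM in WT/R249C and 3.82, 12.2 and 12.1 CPM in R249C/R249C. It was detected where Chrna1 was not, for example in WT/R249C replicate 5, in which Chrna1 had no count and the floor was 0.0361 CPM. Chrnd, the delta subunit, was at 0 in 5 libraries and reached 4.10 CPM in R249C/R249C replicate 1. Counts of all 5 subunits were present together in 6 of the 11 libraries.

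WT/R249C replicate 3 had the highest value of Chrna1, Chrnb1 and Chrng, and its 5 subunits summed to 94.96 CPM against 9.56 to 29.0 CPM in the other 10 libraries. Chrnd and Chrne were at 0 in it. The same library, the shallowest of the series at 60560348 counts, also had the highest Mymk and Myh8. It held no count of 9 of the 32 genes, and over the whole table it had counts for 22101 genes, the fewest of the 11 libraries. Rapsn, which encodes the protein that clusters the receptor, stood at 9.53 CPM in it, at 3.28 CPM in WT/WT replicate 1 and at no more than 0.163 CPM elsewhere; this gene was named after its values were seen. The effect of leaving this library out is given beside the tests below.

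**Figure D2:**
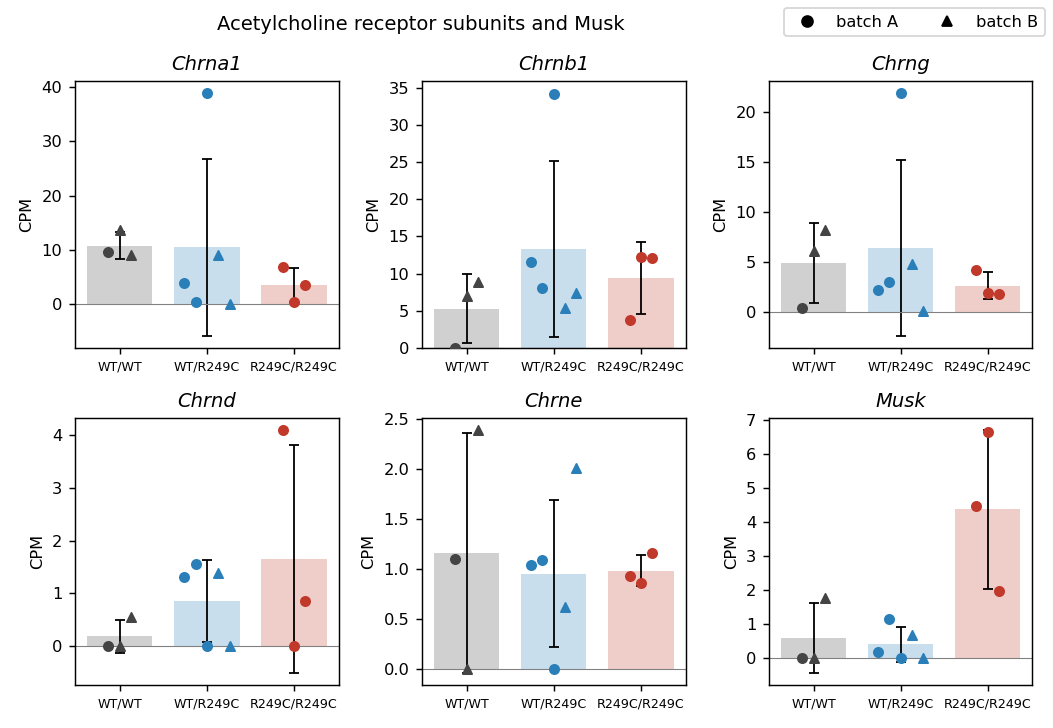
CPM of the 5 receptor subunits and Musk by genotype; bars are group means, error bars SD, points libraries (circles batch A, triangles batch B), with vertical axes that differ between panels. The highest point for Chrna1, Chrnb1 and Chrng is the same WT/R249C library of batch A, at 38.9, 34.2 and 21.9 CPM. Musk lies between 1.98 and 6.64 CPM in the R249C/R249C libraries, narrowly above the highest other library at 1.76 CPM.

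Musk, the receptor tyrosine kinase activated by agrin through Lrp4, was at 0, 0 and 1.76 CPM in WT/WT, 0.176, 1.16, 0, 0.689 and 0 CPM in WT/R249C and 4.47, 6.64 and 1.98 CPM in R249C/R249C. All 3 R249C/R249C libraries lay above all 8 others, which included the lone batch A WT/WT library at 0. The margin was narrow (1.98 against 1.76 CPM), and the share of all genes with this arrangement was not counted. Against WT/WT alone, 3.42% of genes tested were higher in R249C/R249C without overlap. Against the batch A WT/R249C libraries alone the share was 3.45%. The separation of Musk rested on the titles, since the disputed WT/R249C replicates 4 and 5 stood at 0.689 and 0 CPM. Of the partners of Musk, agrin and dystroglycan were the highest of the 14 junction genes listed (Agrn, mean 325 CPM, and Dag1, mean 281 CPM), both of which epithelium also expresses. Dok7, the cytoplasmic activator of MuSK, had counts in only 3 libraries, with a mean of 0.502 CPM.

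Of the actins and myosins, Acta1, Myl1 and Myl4 separated WT/WT from both other genotypes. Acta1, the skeletal actin of the thin filament, stood at 33.0, 25.9 and 54.7 CPM in WT/WT, at 24.7, 7.84, 14.0, 22.6 and 18.9 CPM in WT/R249C and at 16.99, 5.67 and 15.7 CPM in R249C/R249C. Myl1, a light chain of fast myosin, stood at 21.2, 18.5 and 44.2 CPM in WT/WT, at 7.08, 7.76, 14.1, 17.2 and 17.5 CPM in WT/R249C and at 14.1, 0.986 and 9.98 CPM in R249C/R249C. Myl4, an embryonic and atrial light chain, stood at 8.06, 3.02 and 5.58 CPM in WT/WT, at 2.69, 0, 0, 2.81 and 0 CPM in WT/R249C and at 2.35, 1.66 and 0 CPM in R249C/R249C. For these 3 of the 32 genes every WT/WT library lay above every one of the 8 libraries with R249C, an arrangement that 0.644% of the 30298 genes with a mean over 0.05 CPM showed, and the opposite arrangement was shown by 0.297% of genes and by none of the 32. The margins were narrow for Acta1 (25.9 against 24.7 CPM), Myl1 (18.5 against 17.5 CPM) and Myl4 (3.02 against 2.81 CPM), and the arrangement was picked out after the values were seen. In batch A alone the WT/WT library was above all 6 mutant libraries for 6 of the 32 genes (Myf6, Acta1, Tnnt3, Tnni2, Myl1 and Myl4), against 14.7% of all genes.

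**Figure D3:**
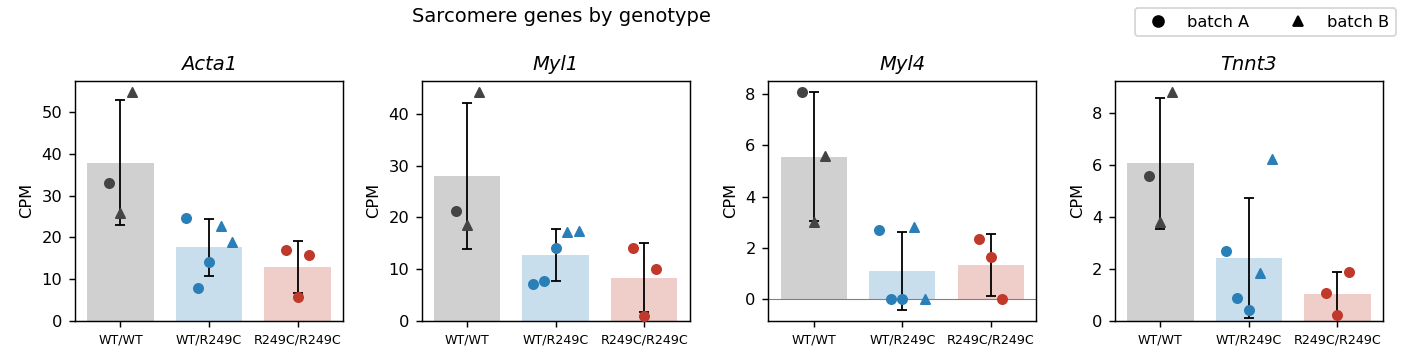
CPM of Acta1, Myl1, Myl4 and Tnnt3 by genotype, with group means (bars), SD (error bars) and libraries (circles batch A, triangles batch B); vertical axes differ between panels. For Acta1, Myl1 and Myl4 the lowest WT/WT library (25.9, 18.5 and 3.02 CPM) lies just above the highest library with R249C, while for Tnnt3 a WT/R249C library at 6.23 CPM lies among the WT/WT libraries.

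The other motor genes did not separate in this way. Mylpf, the regulatory light chain of fast muscle, ranged from 4.13 to 23.02 CPM, both ends in WT/R249C, with group means of 12.9 ± 2.14, 11.6 ± 7.81 and 9.56 ± 2.64 CPM in WT/WT, WT/R249C and R249C/R249C. Myh3, the embryonic myosin heavy chain, was at 0 in WT/WT replicates 1 and 2 and at 13.1 CPM in replicate 3. Myh8, the perinatal heavy chain, ranged from 0.726 to 13.2 CPM. Myh3 and Myh8, like Acta1 and the cardiac actin Actc1, belong to families of closely related genes; how reads shared by such genes were counted was not given, and identity was not measured here, so the levels of these 4 may be uncertain. Actc1 ranged from 0 to 15.2 CPM, and Actn2, the alpha-actinin that anchors thin filaments at the Z-disc, from 0 to 3.54 CPM.

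The giant scaffold proteins and desmin were among the highest genes as CPM, in part by length. Ttn, the spring of the sarcomere and an autoantigen of myasthenia, stood at 46.4, 89.6 and 73.7 CPM in WT/WT, at 52.6, 16.5, 54.7, 15.7 and 27.8 CPM in WT/R249C and at 79.5, 59.4 and 37.8 CPM in R249C/R249C. Its exons cover 117 kb, so per kilobase it had 0.431 CPM per kb and ranked 22 of 32. Neb, nebulin, which sets thin filament length, ranged from 0.544 to 30.7 CPM, with both ends in different genotypes (R249C/R249C replicate 3 and WT/WT replicate 3). Des, the intermediate filament of muscle, averaged 58.6 ± 39.1, 44.7 ± 25.6 and 52.6 ± 17.99 CPM in WT/WT, WT/R249C and R249C/R249C, with no separation. Desmin is also made by smooth muscle and pericytes, whose 12 markers summed to 939 to 1910 CPM over the libraries, far above the skeletal genes. Most of that sum came from Rgs5 (mean 848 CPM) and Acta2 (mean 275 CPM). Myh11, Tagln and Lmod1 averaged 75.2, 56.6 and 38.2 CPM. Pdgfrb, Notch3, Cnn1, Cspg4, Mcam, Actg2 and Kcnj8 averaged 1.36 to 12.8 CPM, below desmin at 50.6 CPM. Markers other than Rgs5 and Acta2 were named after their values were seen. What share of desmin came from smooth muscle or pericytes was not tested.

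The troponins, which make the thin filament respond to calcium, were present in fast and slow forms. The slow inhibitor Tnni1 had a mean of 8.88 CPM and the fast inhibitor Tnni2 of 2.34 CPM. The fast tropomyosin-binding subunit Tnnt3 stood at 5.56, 3.82 and 8.79 CPM in WT/WT, at 2.68, 0.894, 0.429, 1.83 and 6.23 CPM in WT/R249C and at 1.06, 0.213 and 1.86 CPM in R249C/R249C. The 3 R249C/R249C libraries were below all WT/WT libraries, and 4 of the 5 WT/R249C libraries were too. The slow form Tnnt1 ranged from 0 to 5.60 CPM and the slow and cardiac calcium sensor Tnnc1 from 0 to 5.44 CPM. The fast calcium sensor Tnnc2 had group means of 7.82 ± 3.78, 1.51 ± 1.42 and 3.71 ± 5.15 CPM in WT/WT, WT/R249C and R249C/R249C, but 592 of its 800 exon bases lie opposite Ube2c (mean 13.4 CPM) in the annotation, and without a stated strand their reads cannot be told apart.

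Among the genes of calcium handling, membrane and energy supply, Ckm, the muscle creatine kinase, ranged from 2.32 to 23.2 CPM and was present in every library. Ryr1, the calcium release channel of the sarcoplasmic reticulum, stood at 1.56, 6.07 and 0.428 CPM in WT/WT, at 0.415, 0.0591, 0.314, 0.0464 and 3.01 CPM in WT/R249C and at 2.08, 5.49 and 0.642 CPM in R249C/R249C. Ryr1 was under 1 CPM in 4 of the 5 WT/R249C libraries, with its lowest value in replicate 4, and in 1 library of each other genotype. Casq2, the cardiac and slow calsequestrin that stores calcium, ranged from 0 to 5.66 CPM, and its fast counterpart Casq1 from 0 to 2.499 CPM with 5 libraries at 0. Cav3, the muscle caveolin, never passed 0.135 CPM.

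Against WT/WT, none of the 31 tested genes of the 32 passed in R249C/R249C, and none in WT/R249C (Myod1 was too low to test). The fit was edgeR's quasi-likelihood test over all 11 libraries with batch as a term, adjusted by Benjamini-Hochberg over 26980 genes. At an adjusted p under 0.05 the share of all genes called was 0% in either comparison with edgeR and with limma voom, while DESeq2 called 408 genes (1.51%) in R249C/R249C and 274 (1.02%) in WT/R249C, none of them among the 31. At an unadjusted p under 0.05 edgeR gave 865 genes in R249C/R249C, 1.7% of genes higher and 1.51% lower, with none of the 31. It gave 940 genes in WT/R249C, 1.91% higher and 1.57% lower, with 1 of the 31, lower. Both comparisons share the WT/WT libraries.

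The direction of the 31 genes was mixed. In R249C/R249C 14 were fitted higher and 17 lower than in WT/WT, with a median log2 fold change of -0.47 against -0.02 for all genes, and in WT/R249C 10 higher and 21 lower, with a median of -0.69 against 0.02. Neither median kept its sign: within batch A, where WT/WT is 1 library, they were 0.67 and 0.55, and with the disputed libraries left out 0.56 and 0.44. Without WT/WT replicate 3, in which 11 of the 32 genes had their highest level, they were 0.03 and 0.07.

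Acta1 had the narrowest interval of the tested genes against WT/WT, and in R249C/R249C the smallest p. Its log2 fold change was -1.27 (SE 0.62, 95% interval -2.67 to 0.13, edgeR adjusted p = 1) in R249C/R249C and -0.998 (SE 0.49, -2.10 to 0.11, adjusted p = 1) in WT/R249C. Under all alternatives run it was lower in both comparisons, from -1.55 to -0.76 in R249C/R249C and from -1.24 to -0.52 in WT/R249C. The fitted difference missed the threshold in the main test, and the interval of R249C/R249C includes no change.

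Myl1 and Tnnt3 were fitted lower in both comparisons without passing the test. Myl1 gave -1.16 (95% interval -3.15 to 0.83) in R249C/R249C and -0.98 (-2.55 to 0.59) in WT/R249C, and Tnnt3 gave -1.87 (-4.63 to 0.88) and -1.28 (-3.46 to 0.91), each with an edgeR adjusted p of 1. Neb gave -1.49 (-4.57 to 1.59) in R249C/R249C, again with an adjusted p of 1. Ttn had the smallest p in WT/R249C, at -1.24 (-2.47 to -0.02, edgeR adjusted p = 1), and was the gene past the unadjusted threshold. That value rested on batch B: it was -1.88 within batch B, where both WT/R249C libraries are the disputed ones, and -0.23 within batch A.

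Chrna1 was not resolved by these libraries. Its log2 fold change was -2.27 (SE 2.501, -7.93 to 3.39, edgeR adjusted p = 1) in R249C/R249C and -0.61 (SE 2.00, -5.15 to 3.93, adjusted p = 1) in WT/R249C. The value in R249C/R249C was -6.08 without WT/R249C replicate 4 and -1.09 without WT/R249C replicate 3. In WT/R249C it turned positive, to 0.10, without WT/R249C replicate 5, and to 0.43 within batch A.

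By rank alone, counting genes whose library values do not overlap between groups, 6 of the 31 (Myog, Chrna1, Acta1, Myl4, Tnnt3 and Myl1) were lower in every R249C/R249C library than in every WT/WT library and 1 (Musk) was higher. Over all genes tested the shares were 4.68% lower and 3.42% higher. In WT/R249C 4 of the 31 (Tnnc2, Acta1, Myl4 and Myl1) were lower in every library and none higher, against 1.83% lower and 1.1% higher over all genes. The 6 genes lower in R249C/R249C include myogenin, 1 receptor subunit and 4 sarcomere genes, while the other receptor subunits overlapped between these groups. With the disputed libraries counted as R249C/R249C, Myog, Chrna1, Tnnt3 and Musk would overlap WT/WT. For the first 3 the highest disputed values were 50.7, 9.04 and 6.23 CPM, against lowest WT/WT values of 46.0, 9.02 and 3.82 CPM. Batch was not equal between the groups, and the leukocyte sum given above was higher in WT/WT too.

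**Figure D4:**
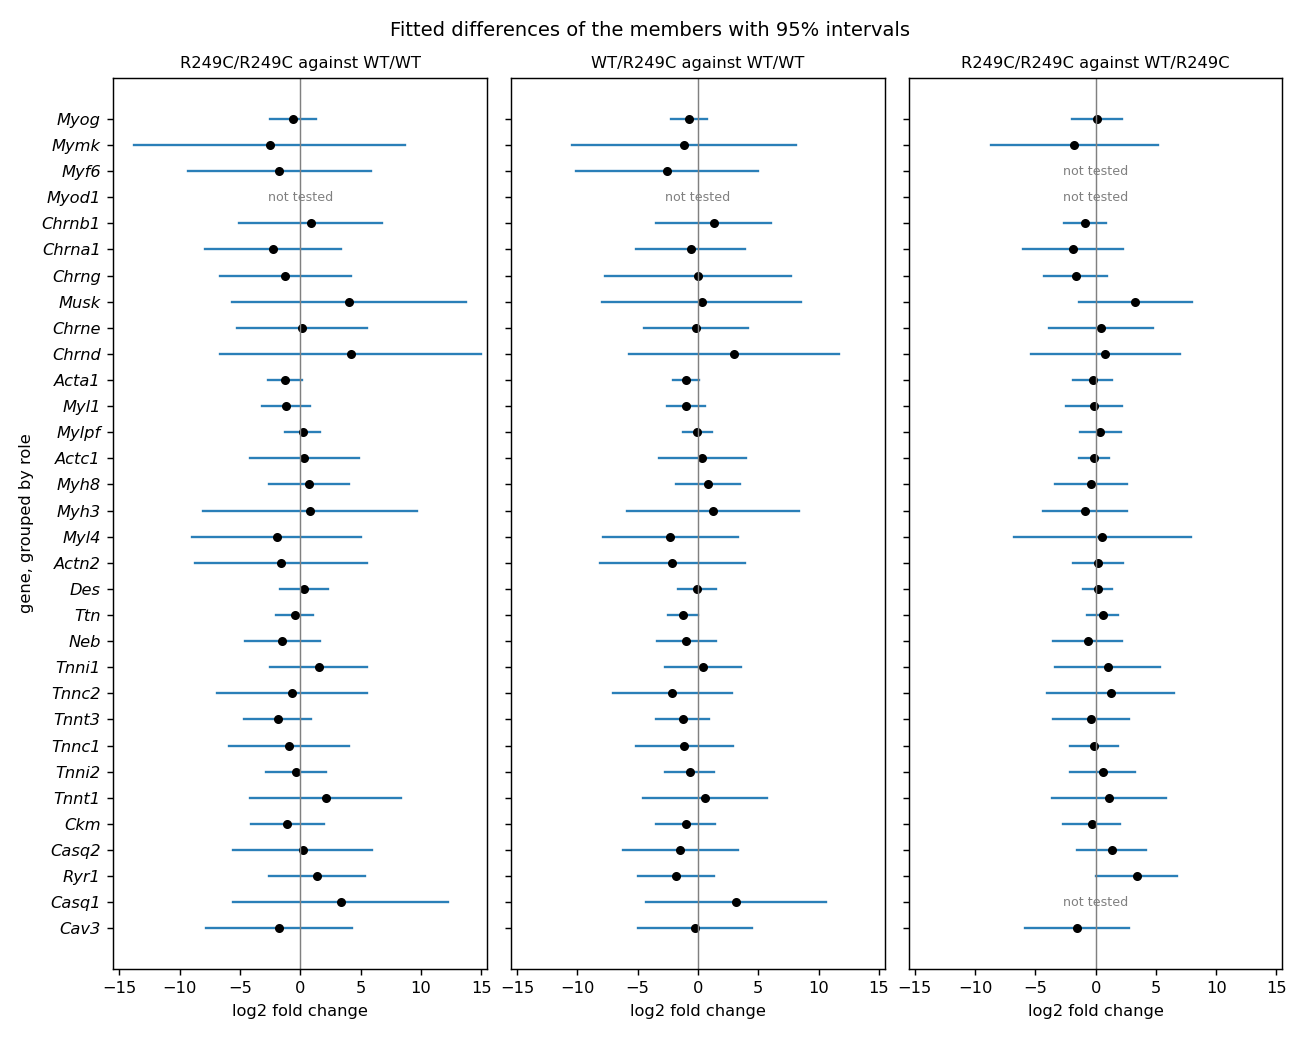
Fitted log2 fold change (points) with 95% interval (lines) of each gene in the 3 comparisons, from edgeR; genes that were too low to test are marked. All but 2 intervals span 0 and many span several log2 units, the exceptions being Ttn in WT/R249C against WT/WT and Ryr1 in R249C/R249C against WT/R249C.

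R249C/R249C was compared with WT/R249C within batch A, 3 libraries each, where neither batch nor the disputed labels enter. None of the 29 tested genes (Myod1, Myf6 and Casq1 were too low) passed edgeR's test, and none of all 23695 genes did (0%). DESeq2 called 33 genes (0.139%) and limma voom 0%, with none of the 29 in either. At an unadjusted p under 0.05 edgeR gave 256 genes, 0.506% of genes higher and 0.574% lower, with 1 of the 29, higher. Of the 29, 15 were fitted higher and 14 lower, with a median of 0.10 against 0.01 for all genes.

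Ryr1 was the gene past the unadjusted threshold, at a log2 fold change of 3.42 (SE 1.39, 0.04 to 6.79, edgeR adjusted p = 1). Each R249C/R249C library (2.08, 5.49 and 0.642 CPM) lay above the 3 batch A WT/R249C libraries (at most 0.415 CPM), and in batch B, outside this comparison, WT/R249C replicates 4 and 5 stood at 0.0464 and 3.01 CPM. Musk gave 3.29 (-1.40 to 7.98), Chrng -1.64 (-4.25 to 0.98), Chrnb1 -0.86 (-2.62 to 0.89) and Chrna1 -1.87 (-6.01 to 2.28), all with an edgeR adjusted p of 1. For the receptor subunits 1 library decided the value: without WT/R249C replicate 3 Chrna1 was 0.72, Chrng 0.0062 and Chrnb1 -0.10. Ryr1 and Musk were the 2 of 29 whose libraries did not overlap, both higher, and none was lower, against 3.45% of genes higher and 5.41% lower.

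The 32 genes varied widely between libraries of one genotype. The biological coefficient of variation, the spread between libraries beyond counting error in the edgeR fit, had a median of 1.26 over the 31 tested genes against 0.86 over all genes. The median of genes of like abundance was also 1.26, and 18 of the 31 were above the median of their own abundance and 13 below. The steadiest were Ttn (0.47), Acta1 (0.50), Des and Mylpf (0.57 each) and Myog (0.60), and the most variable Myf6 (3.39), Casq1 (2.83) and Chrnd (2.79). Against their abundance Ttn, Des and Myog were variable, since like genes had medians of 0.34, 0.34 and 0.35. The tuft cell genes, another mimetic programme, had a median of 0.80 and the ciliated cell genes 1.62, at other abundances.

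The number of the 32 genes without a count went with the whole table. WT/R249C replicate 5 had no count for 13 of the 32 genes and WT/WT replicate 2 for 10, at floors of 0.0361 and 0.0243 CPM, while WT/R249C replicate 1 had counts for all 32. Over the whole table these 3 libraries had counts for 23073, 24989 and 31180 genes. Myh3 at 0 in WT/WT replicates 1 and 2 and 13.1 CPM in replicate 3, and Chrna1 at 0 and 38.9 CPM within WT/R249C, are differences far beyond the counting floor.

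Adult and accessory muscle genes accompanied the 32. No gene of the 14 lists set beside them passed edgeR's test in any of the 3 comparisons. Of 25 further sarcomere genes the highest were Tpm3 (mean 479 CPM) and Tpm1 (407 CPM), tropomyosins that most cells make. None of the 25 passed edgeR's test in any comparison, and their medians were -0.18 in R249C/R249C and 0.29 in WT/R249C against WT/WT. The adult fast myosins Myh1 and Myh4, named after their values were seen, averaged 7.42 and 8.75 CPM and were at 0 only in WT/R249C replicate 3. Of 17 further regulators, 21 excitation and metabolism genes, 14 junction partners and 11 neuronal receptor subunits none passed either. Their medians in R249C/R249C against WT/WT were 0.08, 0.44, -0.17 and 0.82, the last over 9 tested genes. Chrnb4 and Chrna9 were the highest neuronal subunits, with means of 7.99 and 7.09 CPM.

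Markers of other cell types were also measured. Of satellite cell markers, the defining genes Pax7 and Myf5 averaged 0.939 and 0.194 CPM and were at 0 in 4 and 8 libraries, while Sdc4 and Vcam1 (means 382 and 353 CPM) are expressed by other cells as well. The 10 fibroblast markers summed to 906 to 2529 CPM, of which Dcn averaged 1144 CPM. In WT/R249C against WT/WT 9 of them were fitted lower, with a median log2 fold change of -1.32, beside -0.69 for the muscle genes. Of these 9, 2 had an unadjusted edgeR p under 0.05, against 1.57% of all genes lower. None passed the adjusted threshold. In R249C/R249C against WT/R249C 9 were fitted higher, with a median of 1.301, and against WT/WT the median of R249C/R249C was 0.05. The part of these cells, and of the smooth muscle and pericyte markers given above, in the muscle values was not tested.

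Some genes of heart and slow muscle differed by batch. The 13 heart markers together did not separate the batches, summing to 70.6 ± 15.0 CPM (SD, n = 7) in batch A and 58.6 ± 18.3 CPM (n = 4) in batch B, and Myl7 and Tnnt2 averaged 11.9 and 19.5 CPM in batch A and 16.9 and 19.6 CPM in batch B. Myh6, the atrial and adult mouse ventricular myosin, was at 15.8 to 22.2 CPM in the 7 libraries of batch A, with a coefficient of variation of 13.3%, and at 0.770 to 10.2 CPM in the 4 of batch B. Myoglobin (Mb), the oxygen store of heart and slow muscle, was at 5.70 to 7.61 CPM in batch A (12.0%) and at 0 to 0.181 CPM in batch B. Myl2, the slow and ventricular light chain, was at 4.59 to 6.42 CPM in batch A (12.2%) and at 0 to 1.25 CPM in batch B. Mb and Myl2 are from the metabolism and sarcomere lists, and these 3 genes were named after their values were seen; they were nearly even across genotypes within batch A, unlike the skeletal genes.

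Over the 13 heart markers, 3 were higher in every batch A than in every batch B library, as were 5 of the 25 further sarcomere genes and 2 of the 21 excitation and metabolism genes, but none of the 32; Myl3 is in both of the first lists. Among all 30298 genes with a mean over 0.05 CPM, 65 (0.215%) showed this. The 2 of the 32 with the most even levels in batch A were Actn2 and Actc1, both of which heart also expresses. Actn2 was at 1.11 to 2.33 CPM in batch A (26.6%) and 0 to 3.54 CPM in batch B, and Actc1 at 6.46 to 14.0 CPM (29.7%) and 0 to 15.2 CPM. Acta1 and Myog varied by 56.2% and 63.0% within batch A. The part of batch in the levels of Actc1 and Actn2 was not tested; all R249C/R249C libraries are in batch A.

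**Figure D5:**
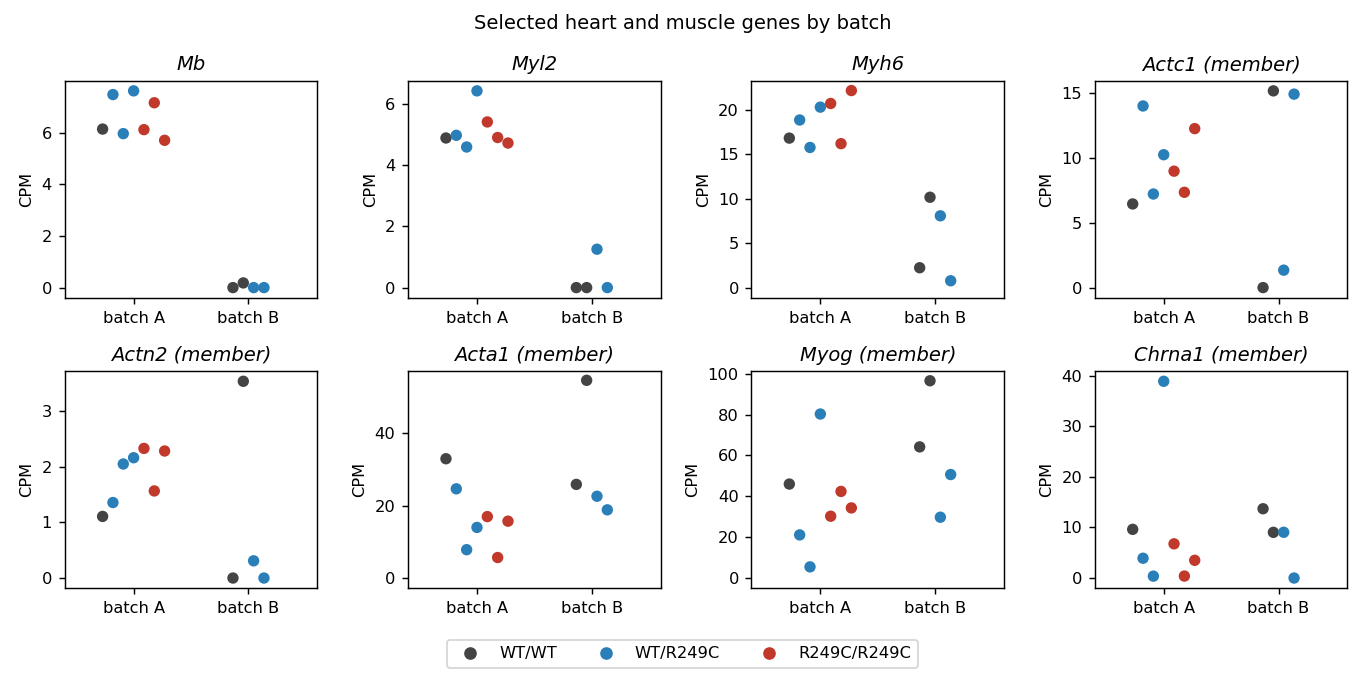
CPM of 3 genes of heart and slow muscle (Mb, Myl2 and Myh6), picked after their values were seen, and 5 of the 32 genes in each library, by batch (horizontal axis) and genotype (colour); vertical axes differ between panels. These 3 form a tight band in batch A, 5.70 to 7.61 CPM for Mb, and are near 0 or lower in batch B, Actc1 and Actn2 are tighter in batch A, and Acta1, Myog and Chrna1 scatter in both batches.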

How the data were processed

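The authors deposited raw counts, whole numbers for each gene in each library with no scaling applied. Per the submitters' processing notes, the authors ran FastQC, HISAT2 and StringTie with mouse build mm39; versions, the counting method and the annotation are not given in the sources used here. Symbols were matched through GENCODE vM21 (an older build), used for names, exon lengths and overlaps, and no coordinates were converted. Only the batch A column names include "trimmed", so read trimming may have differed by batch.

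CPM are counts over the library total. Differences were tested with edgeR 4.0.16 in R 4.3.3 (quasi-likelihood, robust, TMM, filterByExpr, batch as a term in the fit of 11 libraries; R249C/R249C against WT/R249C in the batch A libraries alone), two-sided, with Benjamini-Hochberg adjustment over all genes tested and a threshold of 0.05. DESeq2 1.42.0 and limma 3.58.1 were run beside it. Simulated data were used to test the script. The genes described and 14 comparison lists, matched for all 195 entries, were chosen with earlier results of these data known. Levels are given for all 32; fold changes for Chrna1 and the 4 genes of smallest p per comparison; of each list the 2 highest genes and the gene of smallest p may be named, and others are said to be named after their values were seen. Alternatives covered scaling, filter, tool, batch, replicate block, disputed labels and each library left out. Reads carry no molecular identifiers. Protein sequences were not used here.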

Additional observations from a re-analysis of the deposited data

Results flagged for a closer look

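In WT/R249C, the only genotype with enough libraries for the check, 34 measures (each gene's CPM, their sum and the number at 1 CPM) were examined for a single library whose gap to the nearest of the other 4 exceeded Dixon's 95% limit, and 8 had one. Chance gives such a gap in about 1 of 20 groups of normally distributed values, but of all 30298 genes with a mean over 0.05 CPM 24.6% had one in these 5 libraries, so the 8 are no more than is usual in this table.

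WT/R249C replicate 3 stood apart on 5 genes. Chrna1 was at 38.9 CPM against 0 to 9.04 CPM in the other 4, Chrnb1 at 34.2 against 5.40 to 11.6 CPM, and Chrng at 21.9 against 0.180 to 4.83 CPM. Mymk was at 11.4 CPM against 0 to 2.37 CPM, and Ckm at 15.1 CPM against 2.32 to 4.74 CPM. For the 3 receptor subunits and Mymk this library was also above every library of the other genotypes, while Ckm reached 23.2 CPM in WT/WT. WT/R249C replicate 1 was the only one of the 5 with any Myod1 (0.387 CPM) and Myf6 (0.513 CPM); with the other 4 at 0 the rule is met by construction. Ryr1 was at 3.01 CPM in WT/R249C replicate 5 against 0.0464 to 0.415 CPM in the others.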

How the results depend on the processing

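None of the 32 genes was called by any tool or setting run, and the 0 genes called over the whole table changed only with DESeq2 (408, 274 and 33). The signs of Acta1, Myl1, Tnnt3, Neb, Musk, Ryr1 and Chrnb1, where printed, held under every alternative that could be run. Leaving out 1 library moved Chrna1, Myl1, Tnnt3 and Neb in R249C/R249C against WT/WT over -6.08 to -1.09, -1.80 to -0.62, -2.54 to -0.93 and -2.28 to -0.58, and Musk, Ryr1 and Chrnb1 against WT/R249C over 2.703 to 5.56, 2.46 to 4.00 and -1.20 to -0.10. Chrna1 in WT/R249C against WT/WT turned to 0.18 with the replicate block, 0.43 within batch A, 0.44 without the disputed libraries and 0.50 with them counted as R249C/R249C, and leaving out each library gave -4.62 to 0.10. Ttn there turned to 0.22 with the replicate block. In R249C/R249C against WT/R249C, Chrna1 turned to 0.76 with limma voom and ran from -2.78 to 0.72, and Chrng from -2.16 to 0.0062, over the libraries left out. The medians against WT/WT were 0.58 (R249C/R249C) and 0.72 (WT/R249C) with the replicate block, and ran from -0.90 to 0.03 and from -1.005 to 0.07 over the libraries left out; limma voom gave 0.07 in R249C/R249C. The median of R249C/R249C against WT/R249C ran from -0.08 to 0.39 over the libraries left out. The cause of these turns was not tested. Same-numbered WT/R249C and R249C/R249C libraries correlated by 0.13, 0.08 and 0.03, and differently numbered ones within batch A by -0.09 to 0.04. These values do not settle whether the numbers pair libraries. The main fit did not take the numbers as pairing, and the block left 0 genes called. Summed CPM of R249C/R249C was 210 without Des, and 151 without Des and Ttn, a choice made after seeing the data. Genes detected averaged 14.3, 10.8 and 12.0 at 5 CPM in WT/WT, WT/R249C and R249C/R249C, and 25.6 at 0.1 CPM in WT/R249C. Depth limits what a count of 0 shows; for the genes named with values above 5 CPM the spread between libraries was far beyond the floors.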
